A study of Mus musculus with 16 samples.

Results

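Serpinb1a, Serpinb1b, Serpinb1c, Serpinb6a, Serpinb8, Serpinb9 and Slpi were followed across the livers of 4 groups of male mice. These 7 genes, read by 11 probes out of the 19096 genes that had a probe with a symbol, were selected on their processed signals in these same groups and then taken by name. Each of their values is therefore given as a description, with no p. All 7 had at least 1 probe that could be tested, and 10 of the 11 probes passed the filter on dim signal.

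Liver RNA was hybridised to 16 Agilent mouse arrays in 1 colour, 1 mouse per array and 4 mice per group. WT mice were C57BL/6J, and KO mice carried a germline null allele of Gadd45b. Gadd45b encodes a stress-inducible signalling protein. The carcinogen diethylnitrosamine (DEN) had been given to all mice, WT and KO alike, at 90 mg/kg when 5 weeks old. The WT DEN and KO DEN groups had DEN alone, whereas WT DEN + PB and KO DEN + PB mice also drank phenobarbital (PB), a tumour promoter, at 0.5 g/l starting when 7 weeks old, and every liver was sampled at 57 weeks in tissue outside tumours. None of the 4 groups was free of DEN. The stock name of the KO line carries a second strain beside C57BL/6, so the null allele and the strain background cannot be told apart in any difference between genotypes.

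Serpins of clade B are protease inhibitors that trap their target by an irreversible change of shape, and most lack a classical secretion signal and act inside cells. Serpinb1a is the mouse counterpart of an inhibitor of neutrophil elastase, proteinase 3 and cathepsin G, and Serpinb1b and Serpinb1c are its close copies. Serpinb6a inhibits cathepsin G and trypsin-like proteases, Serpinb8 inhibits furin, and Serpinb9 inhibits granzyme B. Slpi is the only one of the 7 that is classically secreted. It is built of WAP domains and blocks elastase and cathepsin G, so that the word secretory describes Slpi alone.

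In the gene order of the RefSeq table for GRCm38.p6, 16 protein-coding genes run along chromosome 13 from Serpinb1a to Serpinb6a, and all 16 are clade B serpins. Serpinb1c, Serpinb9 and Serpinb1b lie in between. Promoter windows of 250 bases before the RefSeq start were read for 6 of the 7 genes (8 windows), with none for Serpinb1a. Windows are shown for the pairs with the highest scores in local alignment, whatever their signals. Among 28 pairs of windows aligned locally, the best score was for Serpinb1b with the second window of Serpinb1c, where 118 of 165 aligned columns were identical (71.5%), from -157 to -1 in Serpinb1b and from -250 to -93 in Serpinb1c. Capitals mark the identical bases:
Serpinb1b, chr13:33083853-33084102, plus strand: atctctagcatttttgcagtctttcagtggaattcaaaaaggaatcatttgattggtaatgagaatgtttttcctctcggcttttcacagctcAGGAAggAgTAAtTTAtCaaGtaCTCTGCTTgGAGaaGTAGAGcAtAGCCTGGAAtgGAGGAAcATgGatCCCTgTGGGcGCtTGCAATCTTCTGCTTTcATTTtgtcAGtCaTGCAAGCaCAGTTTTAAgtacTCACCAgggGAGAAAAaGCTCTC
Serpinb1c, second window, chr13:32898141-32898390, minus strand: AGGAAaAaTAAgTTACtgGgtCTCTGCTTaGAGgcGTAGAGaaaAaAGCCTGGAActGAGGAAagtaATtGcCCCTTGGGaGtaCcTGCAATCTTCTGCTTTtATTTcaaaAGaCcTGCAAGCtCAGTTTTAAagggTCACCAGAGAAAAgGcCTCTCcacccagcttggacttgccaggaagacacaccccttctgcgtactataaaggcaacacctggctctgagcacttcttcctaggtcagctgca

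The first window of Serpinb1c aligned best with the window of Serpinb9, whose signal followed the Serpinb1 genes less closely than they followed each other. Here 100 of 146 columns were identical (68.5%), from -246 to -119 in Serpinb1c and from -141 to -1 in Serpinb9. The score was 50.5, and that of the next pair was 24.0, with 56.3% identical over 222 columns. Some shorter alignments scored lower but held a higher identical share, up to 79.3% of 29 columns. Capitals again mark identical bases:
Serpinb1c, first window, chr13:32940601-32940850, minus strand: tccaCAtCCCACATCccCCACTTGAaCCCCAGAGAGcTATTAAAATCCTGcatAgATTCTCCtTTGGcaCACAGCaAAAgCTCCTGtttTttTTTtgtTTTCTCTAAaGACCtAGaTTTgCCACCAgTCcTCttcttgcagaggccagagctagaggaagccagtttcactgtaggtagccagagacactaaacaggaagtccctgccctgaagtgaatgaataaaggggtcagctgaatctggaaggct
Serpinb9, chr13:33004291-33004540, plus strand: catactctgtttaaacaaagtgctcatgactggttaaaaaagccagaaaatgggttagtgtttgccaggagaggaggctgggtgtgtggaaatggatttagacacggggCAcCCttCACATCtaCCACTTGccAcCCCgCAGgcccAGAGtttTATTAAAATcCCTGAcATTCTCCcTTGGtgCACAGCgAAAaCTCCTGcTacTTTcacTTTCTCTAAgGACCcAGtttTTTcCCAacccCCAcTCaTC

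Sets of letters were searched on both strands of the 8 windows. AGGTCA, the hormone receptor hexamer, stood once, in the second window of Serpinb1c at -12, and 14.0% of all 32851 promoter windows of that length held it. TTCNNNGAA, the letters of a STAT site, stood once, in a window of Serpinb6a at -77 (7.02% of all windows). TGACNNNGC, from the antioxidant response element, stood once, in the other window of Serpinb6a at -181 (10.2% of all windows), and TATAAA stood once, in the second window of Serpinb1c at -48 (12.4% of all windows). Each match is a description of the letters and not of a bound site.

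Before the genes themselves, the labels and arrays were checked. By either of its probes, Gadd45b could be seen above background in 8 of 8 WT livers but in 0 of 8 KO livers. The share of spots that were well above background was 58.3% to 67.7%, the 75th percentile of the signal ran from 137 to 294, and any pair of arrays within a group correlated at r of 0.970 or more across probes. All 10 hepatocyte markers were above background on every array. WT DEN replicate 3 held the highest summed level of Kupffer cell and macrophage, neutrophil and T and NK cell markers of the 16 arrays. The changes of the 7 genes for PB in WT and for KO minus WT under DEN are also given without it. Signals below are log2 values with the 75th percentile of the array set to 0, and levels of different genes are not compared because probes differ in brightness.

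A gene was called, through its brightest probe, at an adjusted limma p under 0.05 and a change of at least 1.5-fold. For PB in WT, 0 of the 7 genes were called, where 0.737% of all 13305 tested genes were. For PB in KO, 3 were called higher, where 1.26% of all genes were, and 1 lower, where 0.872% were. For KO minus WT under DEN, 4 were called lower (1.74% of all genes) and 1 higher (1.02%), and under DEN + PB 1 was called lower, Serpinb6a (5.85%). As the genes were listed for these signals, nothing is read from the counts. The groups of a comparison did not overlap for 2 of the 7 genes for PB in WT (5.16% of all tested genes), 3 for PB in KO (8.6%), 5 for KO minus WT under DEN (11%) and 1 for KO minus WT under DEN + PB (17.3%). The median change of the 7 genes was 0.78 for PB in WT, 0.36 for PB in KO, -1.17 for KO minus WT under DEN and 0.75 for KO minus WT under DEN + PB, where all tested genes had medians of -0.02, 0.01, -0.04 and 0.03.

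Serpinb1a, Serpinb1b and Serpinb1c were lowest in KO livers given DEN alone and highest in KO livers given DEN + PB, with both WT groups between. Within KO the PB groups stood 14.5-fold (Serpinb1a) and 13.8-fold (Serpinb1c) above the DEN groups, by the brightest probe of each gene. For Serpinb1b the value was 17.4-fold, with 2 of 4 KO DEN arrays not well above background. Within WT the corresponding difference was 1.72-fold to 1.98-fold and did not pass the threshold. Under DEN alone, the KO groups were 4.27-fold to 4.70-fold lower than WT.

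Serpinb1a had signals of 3.25, 2.53, 2.45 and 2.04 in the 4 WT DEN livers, 3.16, 2.82, 3.89 and 4.08 in WT DEN + PB, 0.65, 0.07, 1.59 and -0.42 in KO DEN, and 4.81, 4.24, 4.02 and 4.25 in KO DEN + PB. The KO DEN livers lay below all others, while WT DEN overlapped WT DEN + PB and WT DEN + PB overlapped KO DEN + PB. From low to high, the group means were 0.47 ± 0.86 (SD, n = 4) in KO DEN, 2.57 ± 0.50 in WT DEN, 3.49 ± 0.59 in WT DEN + PB and 4.33 ± 0.34 in KO DEN + PB. PB went with a log2 difference of 3.86 ± 0.38 (SE) within KO and of 0.92 ± 0.38 within WT. The genotypes differed by -2.10 ± 0.38 under DEN (KO minus WT) and by 0.84 ± 0.38 under DEN + PB. KO was thus the lower genotype without PB and held the higher mean with it. The ranges of the latter pair overlapped, and within each of the 4 slides KO was the higher.

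Serpinb1c followed the same order. Its signals were -0.76, -1.15, -1.17 and -1.69 in WT DEN, -0.53, -0.99, -0.60 and 0.48 in WT DEN + PB, -3.22, -3.71, -2.39 and -4.38 in KO DEN, and 0.70, 0.36, -0.17 and 0.57 in KO DEN + PB. As for Serpinb1a, only the KO DEN livers stood clear of every other group. The differences were 3.79 ± 0.37 for PB in KO, 0.78 ± 0.37 for PB in WT, -2.23 ± 0.37 for KO minus WT under DEN and 0.78 ± 0.37 for KO minus WT under DEN + PB. A second, dimmer probe of Serpinb1c was above background on 13 of 16 arrays, on 1 of 4 of them in KO DEN, and correlated with the first at r = 0.894. By that probe the PB difference was 2.97 ± 0.47 in KO and the genotype difference under DEN was -1.40 ± 0.47, the latter not called and with overlapping groups.

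Serpinb1b was dimmest in KO DEN, where 2 of 4 arrays measured it above background. The signals read -2.71, -2.74, -3.20 and -3.00 in WT DEN, -2.04, -2.50, -2.19 and -0.98 in WT DEN + PB, -4.65, -5.40, -3.67 and -6.83 in KO DEN, and -0.34, -0.999, -1.42 and -1.29 in KO DEN + PB. In KO DEN the values -5.40 and -6.83 were not well above background, and the WT DEN and WT DEN + PB livers did not overlap. PB went with 4.12 ± 0.49 in KO and 0.98 ± 0.49 in WT, and KO minus WT was -2.23 ± 0.49 under DEN and 0.91 ± 0.49 under DEN + PB. Its other probe was above background on 1 of 16 arrays and did not enter the test. Normexp background correction has an offset that lifts dim signals. Under it the PB difference in KO was 1.38 for Serpinb1b and 2.23 for Serpinb1c, against 3.58 for Serpinb1a. Serpinb1b was then no longer called. With outlying local backgrounds replaced before normexp, Serpinb1b had a nearly equal difference of 1.39 and was called.

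The genotype difference of the 3 genes under DEN was less firm than their PB difference in KO. With slide as a block it was -2.06 for Serpinb1a, -1.79 for Serpinb1b and -1.997 for Serpinb1c, none of them called. Normexp background correction gave -1.73, -0.79 and -1.15 in the same order, again with none called. With outlying local backgrounds replaced before it, the calls of Serpinb1a and Serpinb1c held and that of Serpinb1b did not. The Serpinb1b call was also lost when WT DEN replicate 1 or 3 or KO DEN replicate 2 or 4 was left out. Without WT DEN replicate 3 the differences were -2.13 for Serpinb1a, -2.32 for Serpinb1b and -2.23 for Serpinb1c, and those for PB in WT were 0.88, 0.89 and 0.79.

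**Figure D1:**
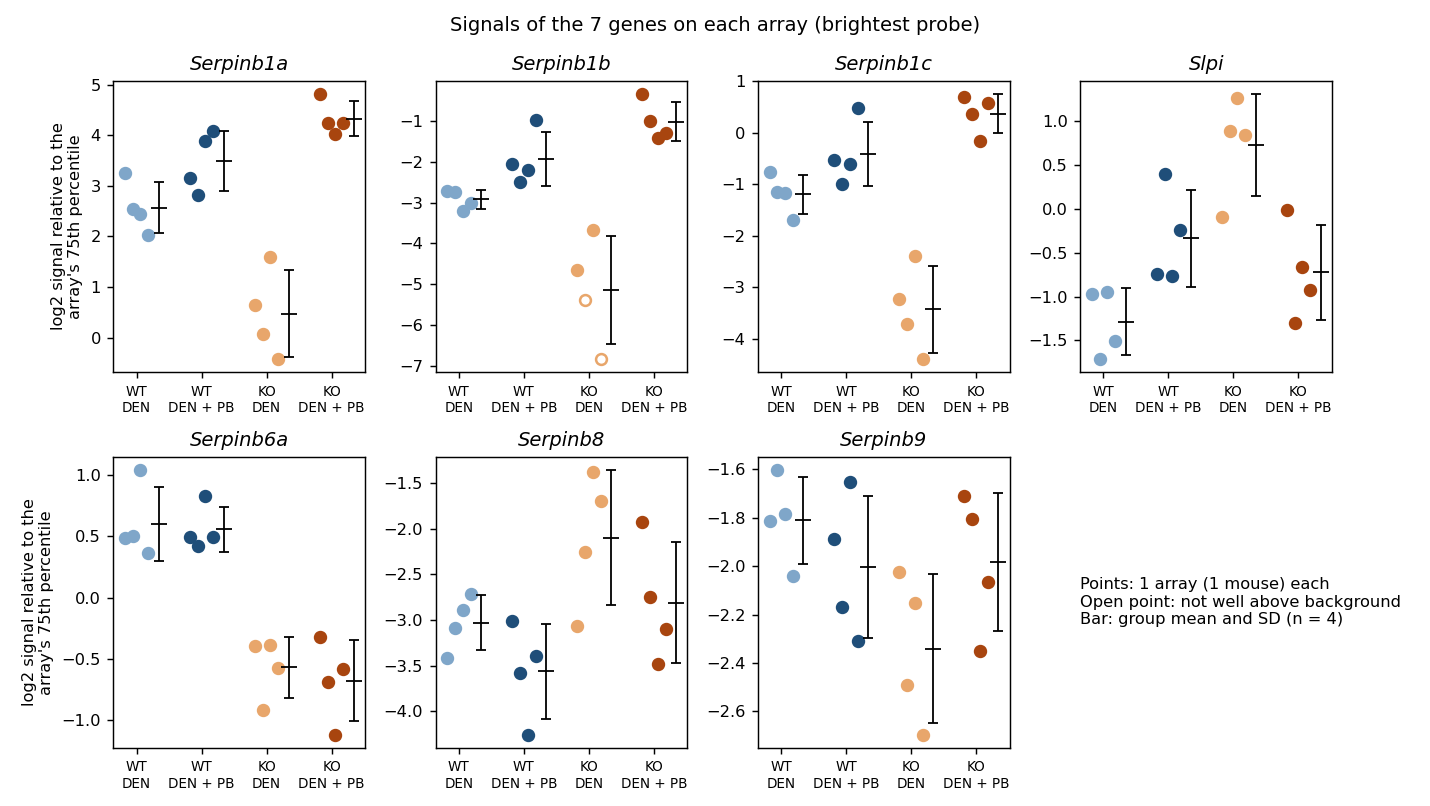
Log2 signal (0 is the 75th percentile of an array) for each of the 7 genes on each of 16 arrays, by group, with the group mean and SD (n = 4) as a bar and open points for arrays not well above background. Serpinb1a, Serpinb1b and Serpinb1c are lowest in KO DEN, Slpi is highest there by its mean, and Serpinb6a is lower in both KO groups (-1.12 to -0.32) than in both WT groups (0.37 to 1.04).

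The PB differences of the genotypes were also set against each other. The difference of the PB effects (WT minus KO) was -2.94 ± 0.54 for Serpinb1a, -3.14 ± 0.70 for Serpinb1b and -3.01 ± 0.53 for Serpinb1c. None of these passed the threshold after adjustment over all probes, and no gene of the 13305 tested did (0%). Unadjusted limma p was under 0.05 for 881 genes, a limit that a share of 0.05 would pass with no difference at all. Without KO DEN replicate 3, the highest of its group for Serpinb1a, Serpinb1b and Serpinb1c, the difference passed for 2 of the 7 genes (Serpinb1a and Serpinb1c), and without WT DEN + PB replicate 4 for 1, Serpinb1c.

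Over the 16 arrays the 3 genes moved together, which includes the differences between groups. Serpinb1a correlated with Serpinb1c at r = 0.989 (Spearman's rho 0.988) and with Serpinb1b at r = 0.977 (rho 0.971), and Serpinb1b with Serpinb1c at r = 0.983 (rho 0.985). After each group's mean was taken off, the values were 0.911, 0.853 and 0.909. The 3 genes are near copies, the probe sequences were not used here, and reading of one copy's RNA by another's probe was not tested. Serpinb9, which lies among them on the chromosome, had r from 0.539 to 0.548 with the 3 genes, and Serpinb6a, at the end of the row, 0.163 to 0.215.

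**Figure D2:**
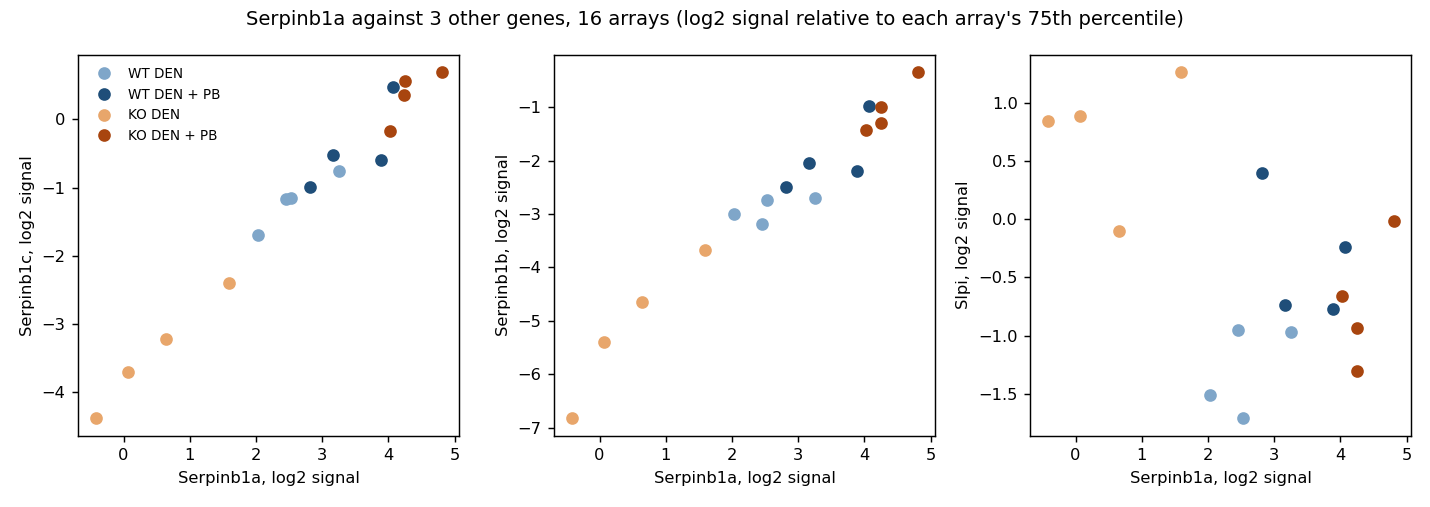
Signals of Serpinb1c, Serpinb1b and Slpi (vertical axes) against Serpinb1a (horizontal axis) on 16 arrays, all on the same log2 scale and coloured by group. Serpinb1c and Serpinb1b rise along a line with Serpinb1a (r = 0.989 and 0.977), whereas the KO DEN arrays are low for Serpinb1a and include the highest values of Slpi.

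Neutrophils are a known source of Serpinb1a. Of 11 neutrophil markers 10 had a probe, and their summed level was 4.33 to 9.64 array 75th percentiles in WT DEN, 4.64 to 5.91 in WT DEN + PB, 5.20 to 8.76 in KO DEN and 2.26 to 3.52 in KO DEN + PB. KO DEN + PB had the highest mean Serpinb1a signal and the lowest summed neutrophil markers. KO DEN, with the lowest Serpinb1a, had higher summed markers than KO DEN + PB on every array. All 10 were above background on at least 1 array. In WT DEN, WT DEN + PB and KO DEN 5 were above background on all 4 arrays, and in KO DEN + PB 3 were. Of the 6 tested, 2 were called lower for PB in KO and 2 in KO under DEN + PB. The part of neutrophils in the Serpinb1a values was not tested. In whole liver, fewer cells of a type and less RNA per cell cannot be told apart. The summed hepatocyte markers were 1986 to 2588 in WT DEN, 1767 to 2026 in WT DEN + PB, 2249 to 2590 in KO DEN and 2277 to 2727 in KO DEN + PB, and so overlapped between the KO groups.

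Slpi had the opposite order under DEN alone. KO livers were 4.03-fold higher than WT livers when given DEN, and within KO the PB group was 2.73-fold lower than the DEN group. The signals were -0.97, -1.71, -0.95 and -1.51 in WT DEN, -0.74, 0.40, -0.77 and -0.24 in WT DEN + PB, -0.10, 0.89, 1.26 and 0.84 in KO DEN, and -0.01, -1.30, -0.66 and -0.93 in KO DEN + PB. KO DEN lay above WT DEN on every array and WT DEN + PB above WT DEN, but KO DEN and KO DEN + PB overlapped through 1 liver of each. KO minus WT was 2.01 ± 0.33 under DEN and -0.39 ± 0.33 under DEN + PB. The former was 2.12 without WT DEN replicate 3, and 1.34 and no longer called under normexp. PB went with 0.95 ± 0.33 in WT (1.06 without WT DEN replicate 3) and -1.45 ± 0.33 in KO, and the difference of these was 2.40 ± 0.47 (WT minus KO), which was not called.

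The Slpi call within KO was not firm: it held under 4 of 10 alternatives and in 10 of 16 fits that left out 1 array. It was lost without KO DEN replicate 2, 3 or 4 and without KO DEN + PB replicate 2, 3 or 4. Slpi is also made by bile duct cells and neutrophils. The summed level of 10 bile duct markers was 13.8 to 33.9 in WT DEN, 19.7 to 38.1 in WT DEN + PB, 13.7 to 38.2 in KO DEN and 13.8 to 17.7 in KO DEN + PB, so the KO DEN range overlapped both that of WT DEN and that of KO DEN + PB. Of the 8 tested, 6 were higher with PB in WT and 2 of these were called. With PB in KO 7 were lower, none of them called, and 1 was called higher. For KO minus WT, 1 was called lower under DEN and 4 under DEN + PB. The summed neutrophil markers overlapped between KO DEN and WT DEN, but within KO they were lower with PB on every array (2.26 to 3.52 against 5.20 to 8.76), as was the mean of Slpi. The part of either cell type in the Slpi values was not tested.

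Serpinb6a was lower in KO livers in both treatments and was called for PB in neither genotype. The difference from WT was 2.25-fold under DEN and 2.36-fold under DEN + PB. Its signals were 0.49, 0.50, 1.04 and 0.37 in WT DEN, 0.49, 0.42, 0.83 and 0.50 in WT DEN + PB, -0.39, -0.92, -0.38 and -0.58 in KO DEN, and -0.32, -0.69, -1.12 and -0.59 in KO DEN + PB. All 8 KO livers lay below all 8 WT livers, and within a genotype the treatments overlapped. KO minus WT was -1.17 ± 0.19 under DEN, or -1.02 without WT DEN replicate 3, and -1.24 ± 0.19 under DEN + PB. The PB differences were -0.04 ± 0.19 in WT, or 0.11 without WT DEN replicate 3, and -0.11 ± 0.19 in KO.

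Markers of Kupffer cells and macrophages moved with Serpinb6a. All 10 were above background on every array, 5 of 10 were called lower in KO under DEN and 9 of 10 under DEN + PB, and none was called higher. Their summed level was 61.0 to 226 in WT DEN, 76.3 to 91.4 in WT DEN + PB, 41.3 to 58.8 in KO DEN and 29.7 to 63.5 in KO DEN + PB. The value of 226 belonged to WT DEN replicate 3, which also had the highest Serpinb6a signal of all 16 arrays. Their part in the Serpinb6a result was not tested.

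**Figure D3:**
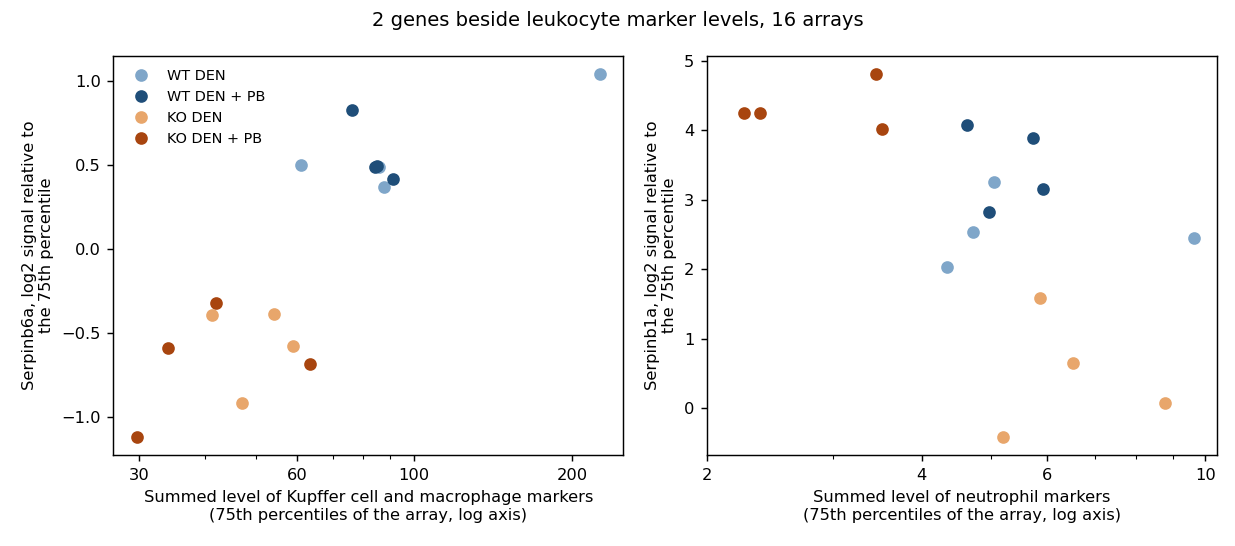
Left, Serpinb6a signal against the summed level of 10 Kupffer cell and macrophage markers. Right, Serpinb1a signal against the summed level of 10 neutrophil markers. Each point is 1 of 16 arrays, signals are on the log2 scale, summed levels are in units of the array's 75th percentile on a log axis, and colours give the group. The KO arrays lie low on both axes at left apart from 1 KO DEN + PB array that reaches 63.5, above the lowest WT array at 61.0, and the KO DEN + PB arrays lie at upper left in the right panel.

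Serpinb9 and Serpinb8 passed the threshold in no comparison. Serpinb9 read -1.81, -1.60, -1.79 and -2.04 in WT DEN, -1.89, -2.17, -1.65 and -2.31 in WT DEN + PB, -2.03, -2.49, -2.15 and -2.70 in KO DEN, and -1.71, -1.81, -2.35 and -2.06 in KO DEN + PB. Of the differences between groups the widest was KO minus WT under DEN, at -0.53 ± 0.19 (-0.52 without WT DEN replicate 3), with ranges that met. The difference of the PB effects (WT minus KO) was -0.55 ± 0.27, and PB in WT was -0.18 without that array. The second probe of Serpinb9 (r = 0.795 with the first) gave -0.66 ± 0.28 for the same contrast, with groups that did not overlap. Granzyme-bearing T and NK cells are the source of the protease that Serpinb9 blocks. The summed level of their 10 markers was 1.10 to 1.99 in WT DEN, 1.11 to 1.48 in WT DEN + PB, 0.840 to 1.45 in KO DEN and 1.00 to 1.72 in KO DEN + PB. For KO minus WT, 8 of the 9 tested were lower under DEN, with 1 called, and 4 of 9 under DEN + PB, with 0 called. The part of these cells in the Serpinb9 values was not tested.

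Serpinb8 read -3.42, -3.09, -2.90 and -2.72 in WT DEN, -3.01, -3.58, -4.25 and -3.39 in WT DEN + PB, -3.07, -2.25, -1.38 and -1.70 in KO DEN, and -1.93, -2.74, -3.48 and -3.10 in KO DEN + PB. The KO DEN mean was the highest and every pair of groups compared overlapped. Its probes disagreed: KO minus WT under DEN was 0.93 ± 0.37 by the brighter probe and 0.03 ± 0.22 by the other, under DEN + PB it was 0.75 ± 0.37 and -0.01 ± 0.22, and the probes correlated at r = 0.339 over the arrays. The difference of Serpinb8 between genotypes was therefore seen by 1 of its 2 probes. By the brighter probe it was 0.98 under DEN without WT DEN replicate 3 and 0.04 under normexp, and PB in WT was -0.48 without that array.

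**Figure D4:**
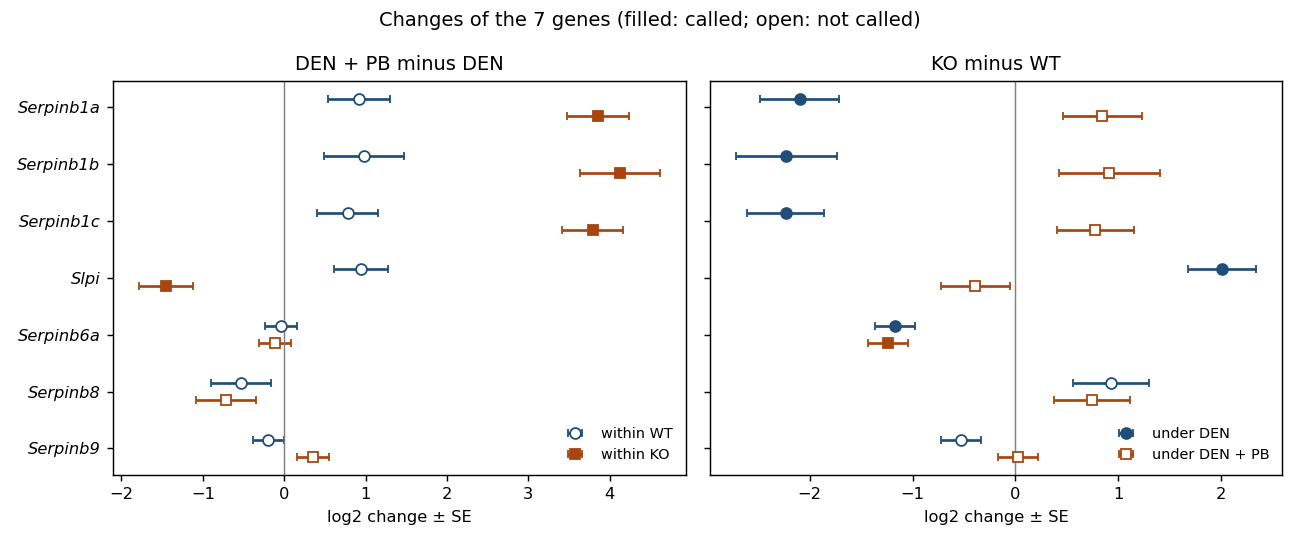
Log2 change ± SE of the 7 genes from the fit to 16 arrays, for DEN + PB minus DEN within each genotype (left) and KO minus WT under each treatment (right). Filled markers were called and open ones were not. The Serpinb1 genes are at 3.79 to 4.12 for PB within KO and at -2.23 to -2.10 for KO minus WT under DEN.

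The 4 slides did not all hold every group, since one had no KO DEN and another no WT DEN array. Within slides, the PB difference in KO for Serpinb1a was 3.44 to 4.18 on 3 of 3 slides that held both groups, and that for Serpinb1b was 3.65 to 4.10 and for Serpinb1c 3.22 to 4.27. KO minus WT under DEN was -3.18 to -1.80 for Serpinb1a, -2.69 to -1.46 for Serpinb1b, -2.94 to -2.04 for Serpinb1c and 0.86 to 1.86 for Slpi, each on 2 of 2 slides. Serpinb6a was lower in KO under DEN on 2 of 2 slides (-1.44 to -1.41) and under DEN + PB on 4 of 4 (-1.95 to -0.82). Slpi was lower with PB in KO on 3 of 3 slides (-1.82 to -1.20). For KO minus WT, Serpinb8 was higher on 1 of 2 slides under DEN (-0.17 to 1.17), and Slpi on 2 of 4 under DEN + PB (-1.33 to 0.23). For PB in WT, Serpinb1a (-0.43 to 1.79) and Serpinb1c (-0.23 to 1.89) were higher on 2 of 3 slides and lower on 1. Serpinb1b was higher on 3 of 3 (0.21 to 1.89). For KO minus WT under DEN + PB, which was called for none of the 3, the KO array was the higher on 4 of 4 slides for Serpinb1a (0.13 to 1.43), Serpinb1b (0.64 to 1.20) and Serpinb1c (0.22 to 1.56).

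The neighbours of the serpin row were then examined. Of the 5 nearest genes on its sides, Wrnip1, Nqo2, Ripk1 and Bphl were tested and Mylk4 was not, and 0 of the 4 were called in any comparison. For PB in KO their log2 changes were -0.18 for Wrnip1, 0.19 for Nqo2, 0.06 for Ripk1 and 0.40 for Bphl, with limma adjusted p from 0.336 to 0.951. Within the row, 6 of 16 genes were tested. The sixth, Serpinb6b, had 0.52 ± 0.25 for PB in KO (limma adjusted p = 0.427).

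Genes outside the list whose pattern over the 16 arrays was most like each gene's were named by Pearson's r. Because r includes the differences between groups, their changes follow from the choice and are given as a description, with no p. Gpcpd1, an enzyme that splits glycerophosphocholine, was among the 3 nearest to Serpinb1a (r = 0.943), Serpinb1b (0.927) and Serpinb1c (0.932). Its log2 difference was 1.92 ± 0.24 for PB in KO and -0.995 ± 0.24 for KO minus WT under DEN. Fam241b had r of 0.918, 0.931 and 0.924 with the same 3 genes, and its differences were 1.20 ± 0.22 and -0.53 ± 0.22. For PB in KO, Fbxo36 (r = 0.946 with Serpinb1a and 0.920 with Serpinb1c) had 1.06 ± 0.19, and Sugct, the third nearest to Serpinb1b (0.918), had 0.71 ± 0.17.

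The genes most like Serpinb6a were Rab31, a small GTPase (r = 0.977), Lilra5, a leukocyte receptor (0.975), and Clec4n, the lectin dectin-2 of myeloid cells (0.974). Under DEN and DEN + PB in turn, the difference of KO from WT was -1.06 and -1.47 for Rab31, -0.94 and -1.19 for Lilra5, and -1.76 and -1.96 for Clec4n. Slx4 (0.818) and St3gal1 (0.794) were among the nearest to Slpi. Serpinb9 was followed most closely by Ankmy2 (0.892), Cops5 (0.841) and Haus2 (0.838), and Serpinb8 by Cpn2 (0.817), Hdac8 (0.816) and Bhmt (0.810).

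Other genes of protease control came from 5 lists drawn by family or role, though with earlier results of these data known. Of 144 such genes 74 were tested. For PB, 1 was called in WT (1.35% of the 74) and 2 in KO (2.70%), and between genotypes 4 were called under DEN (5.41%) and 12 under DEN + PB (16.2%), all of them lower. Over all tested genes the shares called in either direction were 0.737%, 2.13%, 2.76% and 7.61%. Of the 22 other clade B serpins 19 had a probe and 2 were tested, Serpinb3c and Serpinb6b, and neither was called in any comparison, so that the family outside the 7 was largely below the detection filter in these livers.

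Among WAP domain proteins, the family of Slpi, 8 of 20 were tested. Wfdc17 fell by 1.48 ± 0.28 in KO under DEN (limma adjusted p = 0.0105) and fell by 1.77 ± 0.28 under DEN + PB (adjusted p = 0.00121), opposite in direction to Slpi under DEN. Wfdc18 fell by 0.79 ± 0.23 in KO under DEN + PB (adjusted p = 0.0476), a call kept in 5 of 16 fits that left out 1 array. Wfdc12 was 2.83-fold lower with PB in WT (adjusted p = 0.0355), where 1 of 4 WT DEN + PB arrays was above background. In KO it was above background on 0 of 4 DEN + PB arrays, which gives a PB difference of at least 2.22-fold lower (adjusted p = 0.0179). The first Wfdc12 call held in 8 of those 16 fits, not without WT DEN replicate 3, and the second in 12. The calls of Wfdc12 and Wfdc18 were lost with slide as a block, whereas those of Wfdc17 held.

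Secreted serpins of plasma were tested for 23 of 34 genes. Serpina7, the thyroxine-binding globulin, fell by 0.92 ± 0.18 with PB in KO (limma adjusted p = 0.0113) and fell by 1.17 ± 0.18 in KO under DEN + PB (adjusted p = 0.000920). Serpina5, the protein C inhibitor, fell by 1.86 ± 0.36 in KO under DEN + PB (adjusted p = 0.00481), with 1 of 4 KO arrays above background, and Serpini1, neuroserpin, was at least 2.16-fold lower there (adjusted p = 0.0444), a call kept in 4 of 16 fits without 1 array. Of 23 other inhibitors tested, Tfpi, which blocks the start of coagulation, fell by 1.13 ± 0.22 in KO under DEN (adjusted p = 0.0127), a call lost with slide as a block, and was 2.84-fold lower under DEN + PB (adjusted p = 0.000733). Timp3, an inhibitor of metalloproteases, fell by 0.91 ± 0.21 in KO under DEN + PB (adjusted p = 0.0127), and Spint1, which inhibits the activator of hepatocyte growth factor, by 1.06 ± 0.31 (adjusted p = 0.0468, kept in 7 of 16 fits without 1 array and lost with slide as a block).

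Of 30 proteases 18 were tested. Cathepsin G (Ctsg), a target of Serpinb1a, Serpinb6a and Slpi, fell by 1.13 ± 0.31 in KO under DEN + PB (limma adjusted p = 0.0394), a call kept in 9 of 16 fits without 1 array. Cathepsin S (Ctss), a lysosomal protease of antigen-presenting cells, fell by 1.04 ± 0.22 in KO under DEN (adjusted p = 0.0183), a call lost with slide as a block, and fell by 1.45 ± 0.22 under DEN + PB (adjusted p = 0.000878). Cathepsin K (Ctsk) fell by 1.24 ± 0.24 in KO under DEN + PB (adjusted p = 0.00495). Casp1, the inflammatory caspase, fell by 0.82 ± 0.21 under DEN (adjusted p = 0.0439, kept in 4 of 16 fits and lost with slide as a block) and fell by 0.90 ± 0.21 under DEN + PB (adjusted p = 0.0144, kept in 13 of 16). No gene of the 5 lists was called higher in any comparison. Without WT DEN replicate 3, 2 of the 4 genes' calls under DEN were left, those of Wfdc17 and Tfpi, and under normexp none of the calls in the 5 lists was. Ctss and Casp1 are abundant in macrophages, whose markers were lower in KO as given above, and their part in these changes was not tested.

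**Figure D5:**
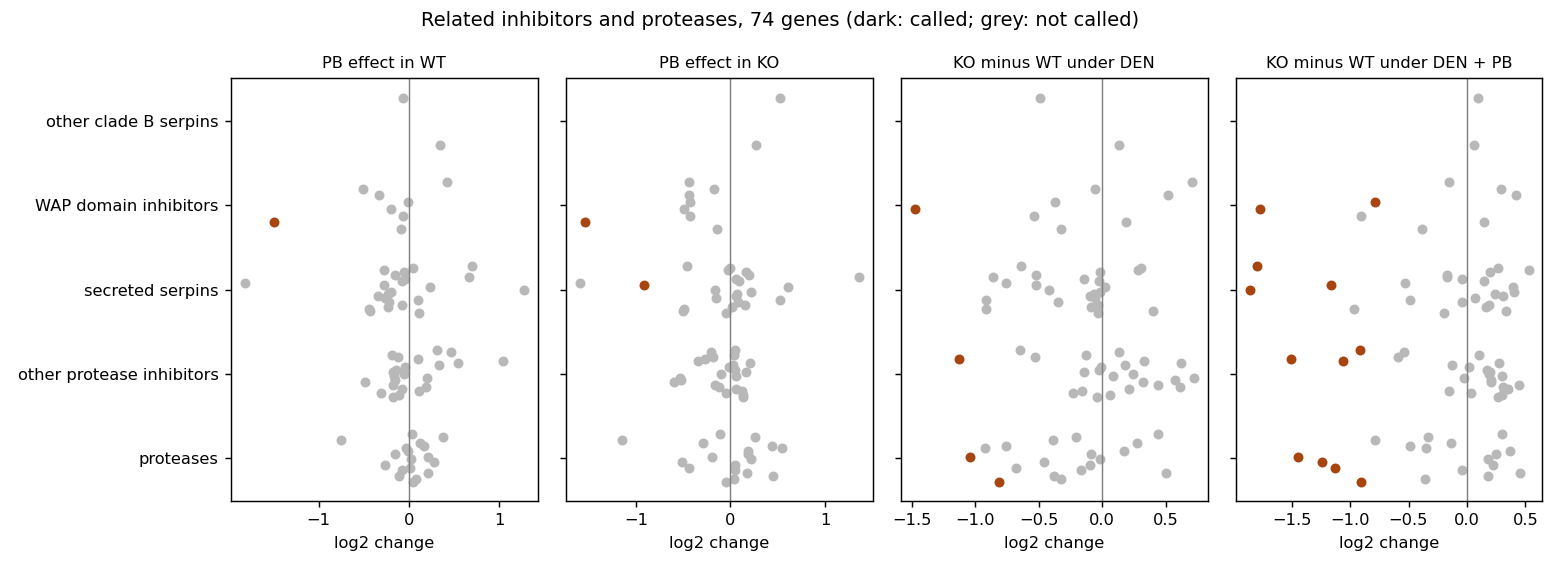
Log2 changes of 74 tested genes of protease control (vertical axis, 5 lists) in 4 comparisons (horizontal axes, log2 change), 1 point per gene. Dark points were called. All called points lie below 0, with 1 for PB in WT, 2 for PB in KO, 4 for KO minus WT under DEN and 12 for KO minus WT under DEN + PB.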

How the data were processed

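Liver RNA of 16 mice, 1 per array, was labelled with Cy3, and the 4 groups follow the sample titles. The authors' scanner software (Feature Extraction 12.0.3.1, per the file headers) gave the deposited processed signal, an intensity on a linear scale corrected for background. The deposited series table held the same intensity averaged over spots, to within 8.67e-05 percent (median deviation), with no scaling between arrays. What the authors normalized by before their own test is not given in the sources used here.

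Spots marked as outliers (71 to 122 per array) were left out, spots of a probe averaged, and log2 signals set relative to the array's 75th percentile. Symbols came from RefSeq accessions (GRCm38.p6 gene table) for 28223 of 41174 probes (68.5%). The array's own build is older, and the only coordinates given are those of the RefSeq promoter windows. The test took the 24455 probes that 1 or more groups measured above background in all 4 mice. A gene takes its brightest probe. Models with 4 group means were fitted with limma 3.58.1 (lmFit, eBayes; R 4.3.3), p adjusted by Benjamini-Hochberg over all probes tested, and calls needed an adjusted p under 0.05 and 1.5-fold. The fit was tested on simulated data. Where no array of a group measured a gene, the fold is a lower bound, taken against each array's dimmest measured probe or, if brighter, the probe itself, averaged over the group. The number of arrays limits precision.

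The 7 genes, the gene and marker lists and the rule for the genes named were chosen with earlier results of these data known. The rule names all 7 genes, Gadd45b, called genes of the 5 related lists (up to 8 per list) and the 3 genes nearest by r to each gene, of which 1 is not reported here. A marker list's summed level adds its genes' signals in units of the 75th percentile. Of 5 B cell and 9 probed pancreatic acinar markers, 5 and 6 were above background on at least 1 array, and the acinar genes Cpa1, Cpb1 and Pnlip on none. Alternatives were other background corrections (normexp, offset 50, on the median signal because the scanner files used here have no mean signal), scalings, filters, probes, arrays and blocks.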

Additional observations from a re-analysis of the deposited data

How the results depend on the processing

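The 10 changes of the 7 genes that were called kept their direction in all 260 values from the alternatives run. Of the 25 not called, 5 took the opposite sign in 20 of 643 values. These were 3 of Serpinb6a (PB in WT, PB in KO and their difference), the difference of PB effects of Serpinb8 and KO minus WT under DEN + PB of Serpinb9. Normexp background correction altered the counts of calls most. Of the 7 genes it left 2 called for PB in KO (4 in the analysis above), 0 for KO minus WT under DEN (5) and 0 for KO minus WT under DEN + PB (1), and of the related genes 0 for PB in WT (1), 0 for PB in KO (2), 0 for KO minus WT under DEN (4) and 0 for KO minus WT under DEN + PB (12), where over all genes it called 40, 12 and 36 for PB in KO and for KO minus WT in the DEN and the DEN + PB groups. With outlying local backgrounds replaced first, an alternative chosen after seeing the data, the related genes numbered 0 for PB in WT and 6 for KO minus WT under DEN + PB. Of the 7 genes 4 were then called for PB in KO. The calls of Serpinb1a, Serpinb1c, Serpinb6a and Slpi for KO minus WT under DEN held, as did that of Serpinb6a under DEN + PB. Over all genes this alternative called 232 for PB in KO and 250 and 431 for KO minus WT under DEN and DEN + PB. The deposited series table without scaling gave, of the 7 genes, 1 for the difference of PB effects (0) and 3 for KO minus WT under DEN, and of the related genes 0 for PB in WT, 1 for PB in KO and 0 for KO minus WT under DEN. With that table the median of all genes was -0.29 for PB in KO, 0.35 for the difference of PB effects and -0.31 for KO minus WT under DEN + PB. In the analysis above these medians were 0.01, -0.04 and 0.03. With slide as a block, 2 of the 7 genes were called for KO minus WT under DEN, and 0, 1 and 1 related genes for PB in WT, PB in KO and KO minus WT under DEN. Without a filter the related genes were 0, 1 and 2 in the same comparisons, and without moderation 0 and 1 in the first pair. Means over a gene's probes gave 2 for PB in WT, and fits to the groups compared alone gave 2 for PB in WT and 1 for PB in KO. The latter cannot apply to the difference of PB effects. Beyond the filters and the smaller fits, the cause was not tested.

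When each array was left out in turn, calls among the 7 genes ranged from 0 to 0 for PB in WT, 3 to 4 for PB in KO, 0 to 2 for the difference of PB effects, 4 to 5 for KO minus WT under DEN and 1 to 1 under DEN + PB. Those among the related genes ranged from 0 to 1, 1 to 3, 0 to 0, 2 to 5 and 7 to 13. The lowest of these, 7, came without WT DEN + PB replicate 3 or 4 or KO DEN + PB replicate 2, and the 2 without WT DEN replicate 3 or KO DEN replicate 4. The calls of Serpinb1a and Serpinb1c for PB in KO held under 10 of 10 alternatives and 16 of 16 omissions. The Serpinb1b call for KO minus WT under DEN held under 3 of 10 and 12 of 16. The Serpinb6a call under DEN was lost under normexp and the series table, and under DEN + PB under normexp.

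The mice were not treated as paired by replicate number. Of 24 same-numbered pairs of arrays 6 correlated above 0.1 in their deviations (-0.213 to 0.356). Differently numbered pairs were not compared, so these values cannot decide whether the numbers pair the mice. With the replicate number as a block, calls among the 7 genes were 0, 3, 0, 5 and 1 in the order above, and among related genes 1, 2, 0, 4 and 11. Dim probes limit Serpinb1b most, with 2 of 4 KO DEN arrays above background.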
